A study of Mus musculus with 80 samples.

Results

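Cluster II and cluster III are groups of single male germ cells that the authors defined, and this report compares the 32 cells of cluster II with the 24 cells of cluster III. The cells came from mouse testes at postnatal day 5.5 per the labels, and cells were taken by the cluster name that the deposited expected count table gives for each cell. The 56 cells are part of 71 cells, and the other cells lie in cluster I (9 cells) and cluster IV (6 cells). All cells were male, of strain B6;CBA-Tg(Pou5f1-EGFP)2Mnn/J, which carries green fluorescent protein under regulatory sequence of Pou5f1 (Oct4). They were sorted as positive for that fluorescence and negative for the receptor KIT, and then captured singly on a Fluidigm C1 machine. The sort therefore follows the fluorescence of this transgene, and germ cells without that fluorescence are not in the data. Both clusters share genotype, age and gate, and no animal is named, so the cells are 1 sample. As a further look at the same genes, sorted cells that were CD87 positive (2 libraries) and CD87 negative (2 libraries) were used. Their labels give the same strain, sex and age and the cell type Oct4-GFP positive germ cells. CD87, the product of Plaur, is the receptor for urokinase. The series' 5 remaining libraries were not analysed here.

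Spermatogonial stem cells maintain sperm production, and in the neonatal testis they are found beside progenitors that have begun to move towards differentiation. Their self-renewal depends on GDNF, a growth factor from somatic cells, which binds the co-receptor GFRA1 and signals through the receptor tyrosine kinase RET. GDNF and FGF signals raise ETS factors such as ETV5 and ETV4, and ERK signalling also raises its own brakes, the Sprouty, Spred and DUSP proteins. Progenitors are known for SOHLH1, the LIN28 proteins and uridine phosphorylase, and differentiating spermatogonia for KIT.

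Both clusters held germ cells by their markers. The RNA helicase gene Ddx4, the RNA-binding protein gene Dazl and the zinc finger genes Sall4 and Zbtb16 were detected in 32 of 32 and 24 of 24 cells, with differences in mean log2(CPM + 1) of -0.23 to -0.03. CPM is the expected count scaled to the cell's total count, and a gene counts as detected at an expected count of at least 1. Detected genes per cell ran from 9371 to 13497 (median 10893.5) in cluster II and from 7552 to 11884 (median 10255) in cluster III. Totals ran from 530042 to 6802787 counts (median 1601407) in cluster II and from 225062 to 3693003 (median 1681169) in cluster III. With every cell thinned to 182150 counts, the medians were 8701.5 genes in cluster II and 8230.5 in cluster III, so cluster II cells still had more genes. The part of this in the gene differences was not tested. Cells of cluster II sat in 8 rows and 12 columns of the plate, and those of cluster III in 7 rows and 11 columns. Amh and Cldn11 (Sertoli cells), Hsd3b1, Insl3, Cyp17a1 and Lhcgr (Leydig cells), C1qa, C1qb and Adgre1 (macrophages), and Kdr (endothelium) had no counts in either cluster. Other members of these lists were detected in some cells: 6 Sertoli, 1 Leydig, 4 macrophage and 4 endothelial in cluster II. Cluster III had 5, 1, 3 and 3. The summed Sertoli markers had medians of 8.86 CPM in cluster II and 6.54 CPM in cluster III, carried largely by Sox9. The summed macrophage markers had medians of 1.21 and 1.15 CPM. Single cells reached more, with highest Sertoli sums of 233 CPM in cluster II and 366 CPM in cluster III. The highest macrophage sums were 128 and 64.1 CPM, the Leydig sums 121 and 40.9 CPM and the endothelial sums 76.02 and 236 CPM. Whether such cells were doublets was not tested.

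Of the 5 genes given as markers of these cells, Etv5 was past a difference of 1 on the higher side in cluster II and Upp1 on the lower side. The ETS factor gene Etv5 had 22.7 CPM in its lowest cell, a median of 421 and a highest value of 1327 CPM in cluster II, against 0, 173 and 752 CPM in cluster III. Its difference in mean log2(CPM + 1) was 2.22, with an SD over cells of 1.61 in cluster II and 2.91 in cluster III. The AKT co-activator gene Tcl1 ran from 0 to 430 CPM (median 87.7) in cluster II and from 0 to 237 CPM (median 39.1) in cluster III, a difference of 0.98. Cyclin D2, encoded by Ccnd2, ran from 457 to 3798 CPM (median 1272) in cluster II and from 180 to 2361 CPM (median 866) in cluster III, a difference of 0.69. Gfra1 did not separate the clusters: it ran from 0 to 359 CPM (median 64.4) in cluster II and from 0 to 449 CPM (median 88.6) in cluster III, a difference of -0.01. Upp1, uridine phosphorylase, ran from 0 to 106 CPM (median 0.214) in cluster II and from 0 to 88.2 CPM (median 4.96) in cluster III, a difference of -1.36. For all 5 genes the ranges of the clusters overlapped.

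Across all genes, more stood higher than lower in cluster II. Of 27106 gene rows, 15973 were compared, those with an expected count of at least 1 in at least 6 of the 56 cells. A difference of at least 1 in mean log2(CPM + 1), called past the fold here, was seen for 848 genes higher in cluster II (5.31%) and 220 lower (1.38%), together 6.69% of the genes compared. The median difference of all genes was 0.13, with 63.1% of genes above 0, and with that median subtracted the counts were 581 higher and 341 lower. These counts are a description: the cells are 1 sample, the authors' clusters were made from these cells' expression, and no test was made. Single cells varied widely, and among genes past the fold the median SD over cells was 2.18 in cluster II and 2.32 in cluster III. In 14 genes past the fold, all higher in cluster II, the difference exceeded the SD of both clusters, and in no gene did the lowest cell of a cluster lie above the highest cell of the other. The genes at either end of the ranking were picked as extremes of this spread. At the edge of the fold, the kinase gene Ttk lay just inside at 1.00 and Tcl1 just outside at 0.98, while on the lower side Rxrb, a retinoid receptor gene, lay just outside.

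**Figure D1:**
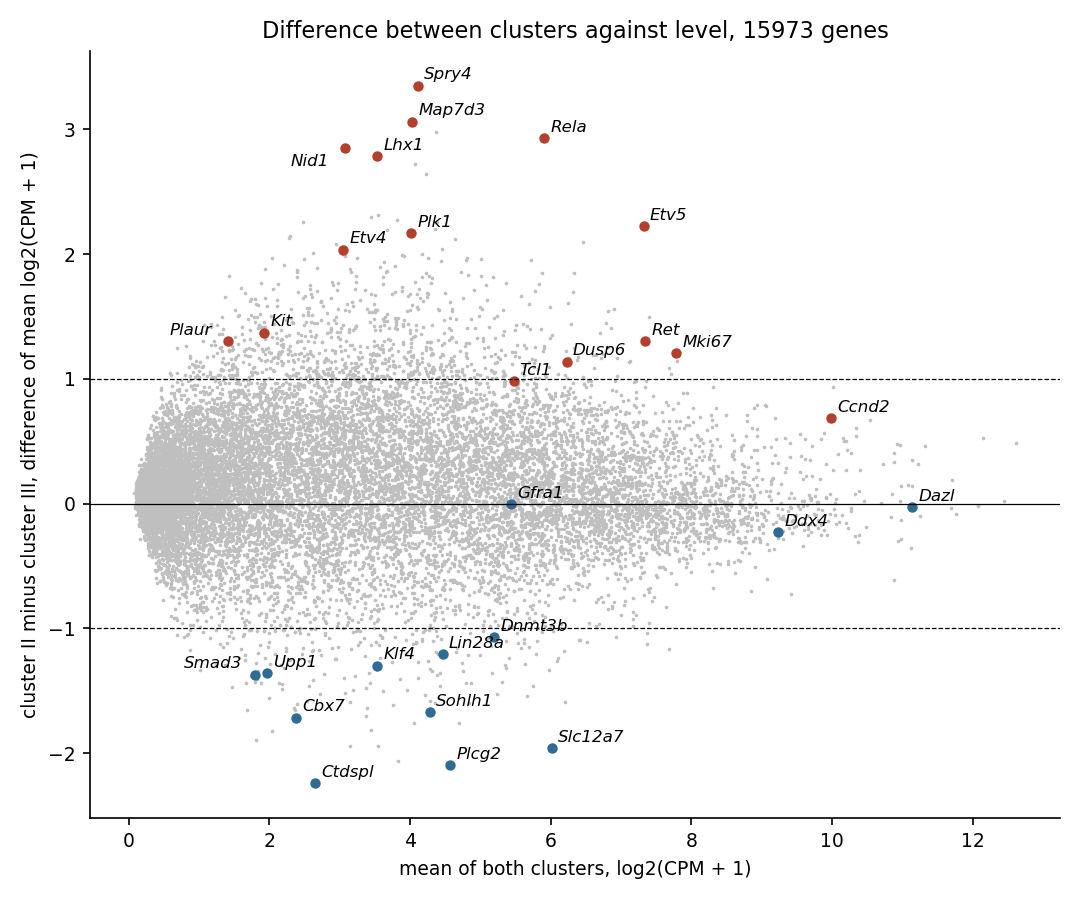
Each point is a gene, with its mean log2(CPM + 1) over both clusters on the horizontal axis and the difference of cluster II minus cluster III on the vertical axis; dashed lines mark differences of 1 and -1. Spry4 lies highest at 3.35, Ctdspl lowest at -2.24, and Gfra1, Ddx4 and Dazl lie near 0.

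Several genes of the GDNF receptor and self-renewal list stood higher in cluster II, though not both members of the receptor pair. Past the fold, 5 of 18 list members compared were higher in cluster II and 0 lower, against 5.31% and 1.38% of all genes. The median difference of the list was 0.25, beside 0.13 for all genes. The 5 members were Lhx1, Tspan8, Etv5, Ret and Pax7. Of these, Pax7 stood at 0.89 after thinning, under the fold, and met the minimum of 6 cells only through cluster II. Lhx1, a LIM homeobox factor gene known as a GDNF target in cultured stem cells, ran from 0 to 402 CPM (median 29.97) in cluster II and from 0 to 259 CPM (median 1.04) in cluster III. It was detected in 30 of 32 cells (93.8%, exact Clopper-Pearson 95% interval 79.2 to 99.2) of cluster II and in 14 of 24 (58.3%, 36.6 to 77.9) of cluster III, and its difference was 2.78. Most cluster II cells thus lay above the cluster III median (29 of 32), yet the ranges overlapped. Here and below, such intervals cover only the counting of cells within 1 sample and do not compare the clusters. Tspan8, a tetraspanin used to sort stem cells, ran from 0 to 93.5 CPM (median 15.0) in cluster II and from 0 to 41.1 CPM (median 0.798) in cluster III, a difference of 2.26.

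Ret, the signalling receptor for GDNF, had 26.1 CPM in its lowest cell, a median of 314 and a highest value of 971 CPM in cluster II, against 0, 196 and 988 CPM in cluster III. Its difference was 1.30. The highest cells of both clusters were alike, while the medians and the lowest cells were higher in cluster II. Gfra1 and Ret were detected together in 29 of 32 cells of cluster II and 19 of 24 of cluster III. Pax7, a paired box factor gene that marks rare stem cells, was detected in 7 of 32 cells of cluster II (21.9%, 9.3 to 39.97) and in 1 of 24 of cluster III (4.2%, 0.1 to 21.1). Its highest cell had 278 CPM in cluster II and 0.792 CPM in cluster III. Members that did not differ past the fold included the helix-loop-helix inhibitor gene Id4 (0.87), the RNA-binding protein gene Nanos2 (0.22), the forkhead gene Foxo1 (0.10), Bcl6b (-0.27), a transcriptional repressor gene, and Taf4b (-0.66), a TFIID subunit gene.

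**Figure D2:**
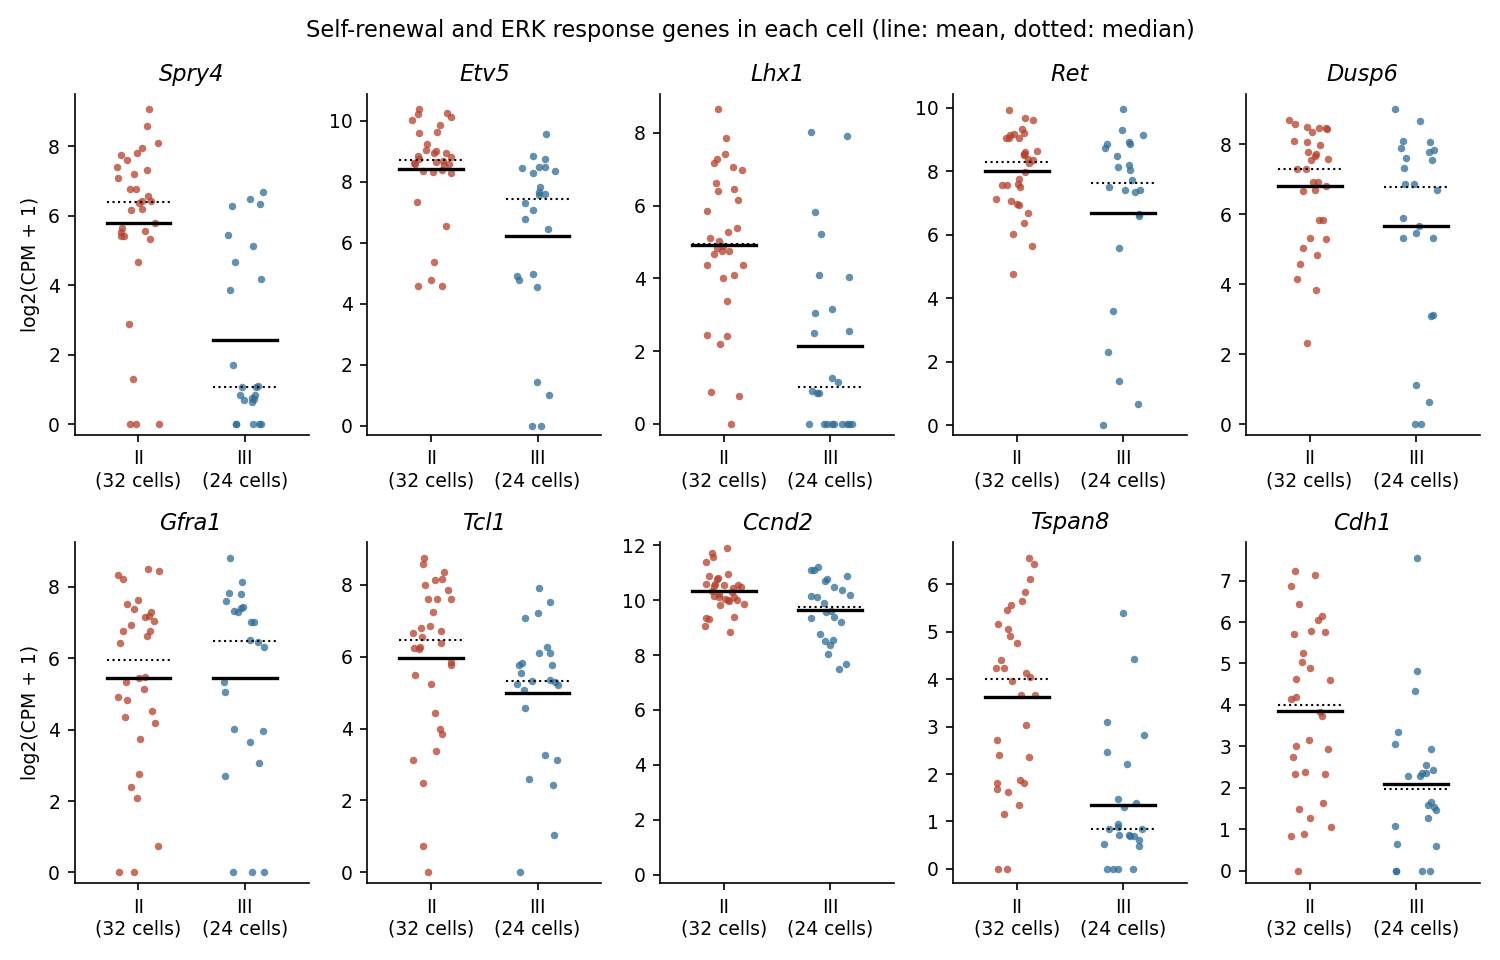
Each point is a cell, cluster II on the left and cluster III on the right of each panel, with log2(CPM + 1) on the vertical axis; the solid line is the mean and the dotted line the median. Spry4, Etv5, Lhx1 and Tspan8 sit higher in most cluster II cells, Gfra1 overlaps throughout, and for Ret and Dusp6 the highest cells are alike while some cluster III cells lie far lower.

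The genes that respond to ERK signalling held the largest difference of all genes compared. Of 21 members of the FGF and ERK list compared, 5 were past the fold on the higher side and 0 on the lower. The shares of all genes were 5.31% and 1.38%, and the list median was 0.43. Spry4, a Sprouty inhibitor of receptor tyrosine kinase signalling, ran from 0 to 536 CPM (median 83.8) in cluster II and from 0 to 102 CPM (median 1.11) in cluster III. Its difference was 3.35 (SD over cells 2.43 in cluster II and 2.50 in cluster III). In 13 of 32 cluster II cells Spry4 lay above every cluster III cell, and 29 of 32 lay above the cluster III median. Etv4, an ETS factor gene closely related to Etv5, ran from 0 to 196 CPM (median 20.5) in cluster II and from 0 to 75.7 CPM (median 1.18) in cluster III, a difference of 2.04. Spred1, an inhibitor of RAS signalling, ran from 0 to 244 CPM (median 18.7) in cluster II and from 0 to 138 CPM (median 3.69) in cluster III, a difference of 1.58. Dusp6, the ERK phosphatase, ran from 4.02 to 414 CPM (median 156) in cluster II and from 0 to 510 CPM (median 109) in cluster III. Its difference was 1.14, and 0.94 with cells thinned to 1 depth, under the fold.

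Taken cell by cell, with Etv5 as the remaining gene of the 5, a cell of cluster II had a median of 4 of these genes at 10 CPM or more (lowest 3), and 10 of 32 cells had all 5. In cluster III the median was 2.5, 3 of 24 cells had all 5 and 1 cell had none. Cluster I was as high as cluster II, with a median of 4 and all 5 in 4 of 9 cells. The value of 10 CPM was chosen after the values were seen. The 5 genes were picked for standing higher in cluster II, so a higher number than in cluster III was fixed in advance. Spearman correlations over cells between pairs of the 5 ran from -0.32 (Etv4 and Spred1) to 0.25 (Spry4 and Dusp6) in cluster II. In cluster III they ran from -0.09 (Etv4 and Spred1) to 0.32 (Spry4 and Etv4). The receptor and kinase genes of the pathway differed less: Fgfr2 (0.51), Fgfr3 (0.36), Fgfr1 (-0.08) and Mapk3 (-0.43) were all under the fold. The inhibitor gene Spry1 (-0.42) and the early growth response gene Egr1 (0.35) were also under it.

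The windows of 250 bases before the annotated start are shown for Etv5, Lhx1 and Dusp6, which stood higher in cluster II, and for Sohlh1, which stood lower, from RefSeq on build GRCm38.p6. They are Etv5 at chr16:22439571-22439820 (minus strand), Lhx1 at chr11:84525535-84525784 (minus), Dusp6 at chr10:99262981-99263230 (plus) and Sohlh1 at chr2:25847249-25847498 (minus). Both strands of these windows were searched for an ETS site (CCGGAA), a CRE (TGACGTCA) and an AP-1 site (TGANTCA). None of these was found in any of the 4, and near matches were not counted. The shorter ETS core GGAA, which the Lhx1 and Dusp6 windows hold, was not searched. The CCAAT box (CCAAT) and an E-box (CACGTG) were searched only after the letters had been seen, and capitals mark their matches.
Etv5: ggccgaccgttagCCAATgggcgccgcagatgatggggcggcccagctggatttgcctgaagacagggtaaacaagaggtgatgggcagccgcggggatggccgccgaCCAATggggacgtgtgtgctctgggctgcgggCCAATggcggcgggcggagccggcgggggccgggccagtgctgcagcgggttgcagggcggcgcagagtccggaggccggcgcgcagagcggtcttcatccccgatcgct
Lhx1: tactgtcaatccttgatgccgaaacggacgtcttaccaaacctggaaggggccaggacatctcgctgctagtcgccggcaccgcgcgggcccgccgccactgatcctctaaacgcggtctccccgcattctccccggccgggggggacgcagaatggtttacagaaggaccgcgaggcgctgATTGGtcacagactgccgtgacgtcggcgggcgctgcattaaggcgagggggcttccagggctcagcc
Dusp6: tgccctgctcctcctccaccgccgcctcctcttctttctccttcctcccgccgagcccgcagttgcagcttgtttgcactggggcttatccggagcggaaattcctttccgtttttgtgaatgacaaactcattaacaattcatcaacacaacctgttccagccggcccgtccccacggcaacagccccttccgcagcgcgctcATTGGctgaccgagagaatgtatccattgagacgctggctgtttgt
Sohlh1: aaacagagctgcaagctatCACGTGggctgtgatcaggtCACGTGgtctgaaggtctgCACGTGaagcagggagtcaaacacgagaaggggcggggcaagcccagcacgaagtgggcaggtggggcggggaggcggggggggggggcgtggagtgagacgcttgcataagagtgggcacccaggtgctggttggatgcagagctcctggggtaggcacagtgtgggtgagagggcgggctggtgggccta
Etv5 held 3 CCAAT boxes, and Lhx1 and Dusp6 held 1 each, on the opposite strand. Sohlh1 held 3 E-boxes. The window of Spred1, which also stood higher in cluster II, was searched too, held 0 matches to any of these motifs and is not shown. Etv5 has 2 annotated starts, and the window of a single start is shown. Among 27025 genes with a window of this length, 13.6% held the ETS site, 1.77% the CRE and 7.82% the AP-1 site. A CCAAT box was held by 37.5% and this E-box by 6.86%. Among the 10177 of these genes that were compared between the clusters, 24.4% held the ETS site, 3.07% the CRE and 5.47% the AP-1 site. A CCAAT box was held by 41.3% and this E-box by 10.01%. The E-box was held by 9.28% of genes past the fold on the higher side and 16.7% on the lower side. These shares were 27.5% and 28.6% for the ETS site and 3.62% and 2.38% for the CRE. For the AP-1 site they were 5.97% and 5.36%, and for the CCAAT box 42.1% and 42.3%. No difference between these shares was tested. A match describes the letters and is no evidence of binding.

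Of the progenitor genes, several were lower in cluster II and none was higher past the fold. All 8 of the progenitor list members that could be compared had a difference below 0, with a median of -0.80. Among all genes 63.1% lay above 0. On the lower side 4 of the 8 were past the fold, against 1.38% of all genes. Neurog3 and Ddit4 were under the minimum number of cells. Sohlh1, a helix-loop-helix factor gene of early differentiation, ran from 0 to 180 CPM (median 7.62) in cluster II and from 0 to 276 CPM (median 61.5) in cluster III. Its difference was -1.67 (SD over cells 2.45 in cluster II and 2.46 in cluster III), and 19 of 24 cluster III cells lay above the cluster II median. Lin28a, which encodes an inhibitor of let-7 microRNA maturation, ran from 0 to 175 CPM (median 27.9) in cluster II and from 0 to 264 CPM (median 66.1) in cluster III, a difference of -1.21. Its relative Lin28b ran from 0 to 178 CPM (median 13.6) in cluster II and from 0 to 389 CPM (median 39.8) in cluster III, a difference of -1.10, and -0.98 after thinning, under the fold. Together with Upp1 these are the 4 genes past the fold, and each overlapped between the clusters. The RNA-binding protein gene Nanos3 (-0.50), the retinoic acid receptor gene Rarg (-0.34), the ubiquitin hydrolase gene Uchl1 (-0.23) and Sox3 (-0.22), which encodes a SOX factor, lay nearer to 0.

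Genes of differentiating spermatogonia did not share a direction. Of 14 members compared, 1 was past the fold on the higher side (Kit) and 2 on the lower (Sohlh1, which is in both lists, and Dnmt3b). The list median was -0.16. Among all genes 5.31% were past the fold on the higher side and 1.38% on the lower. Dnmt3b, a de novo DNA methyltransferase gene, ran from 0 to 530 CPM (median 29.7) in cluster II and from 0 to 654 CPM (median 137) in cluster III, a difference of -1.07. Stra8, a retinoic acid response gene, had medians of 0.914 CPM in cluster II and 7.34 CPM in cluster III and a difference of -0.71, under the fold.

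Kit transcripts were present in both clusters although the gate was KIT negative. Kit ran from 0 to 303 CPM (median 0.674) in cluster II and from 0 to 222 CPM (median 0.769) in cluster III, and it was detected in 16 of 32 cells (50.0%, 31.9 to 68.1) and 12 of 24 (50.0%, 29.1 to 70.9). The share of cells with Kit was thus equal, and the difference of means, 1.37, lay in how high the positive cells were: at 5 or more counts Kit was found in 12 of 32 cells of cluster II and 4 of 24 of cluster III. The difference of medians had the opposite sign, at -0.08. Plaur, which encodes CD87, ran from 0 to 86.3 CPM (median 1.01) in cluster II and from 0 to 84.7 CPM (median 0.520) in cluster III, a difference of 1.30. It was detected in 19 of 32 cells (59.4%, 40.6 to 76.3) of cluster II and 6 of 24 (interval 9.8 to 46.7%) of cluster III. At a cut of 0.5 counts these numbers were 24 of 32 and 16 of 24, so the share depended on the cut. Pou5f1, on whose regulatory sequence the cells were sorted, ran from 0 to 41.4 CPM (median 5.69) in cluster II and from 0 to 64.8 CPM (median 8.94) in cluster III, a difference of -0.50.

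Among 14 surface proteins used to sort spermatogonia, 5 were past the fold on the higher side and 0 on the lower. The shares of all genes were 5.31% and 1.38%, and the list median was 0.51. Besides Tspan8, Kit and Plaur the members past the fold were Cdh1, E-cadherin, and Adgra3, an adhesion receptor gene also known as Gpr125. Cdh1 ran from 0 to 150 CPM (median 15.0) in cluster II and from 0 to 187 CPM (median 3.04) in cluster III, a difference of 1.77. The epithelial adhesion gene Epcam (0.72), the tetraspanin gene Cd9 (0.36), the integrin genes Itga6 (0.27) and Itgb1 (0.11) and Cd82 (-0.05), a tetraspanin gene, lay under the fold.

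**Figure D3:**
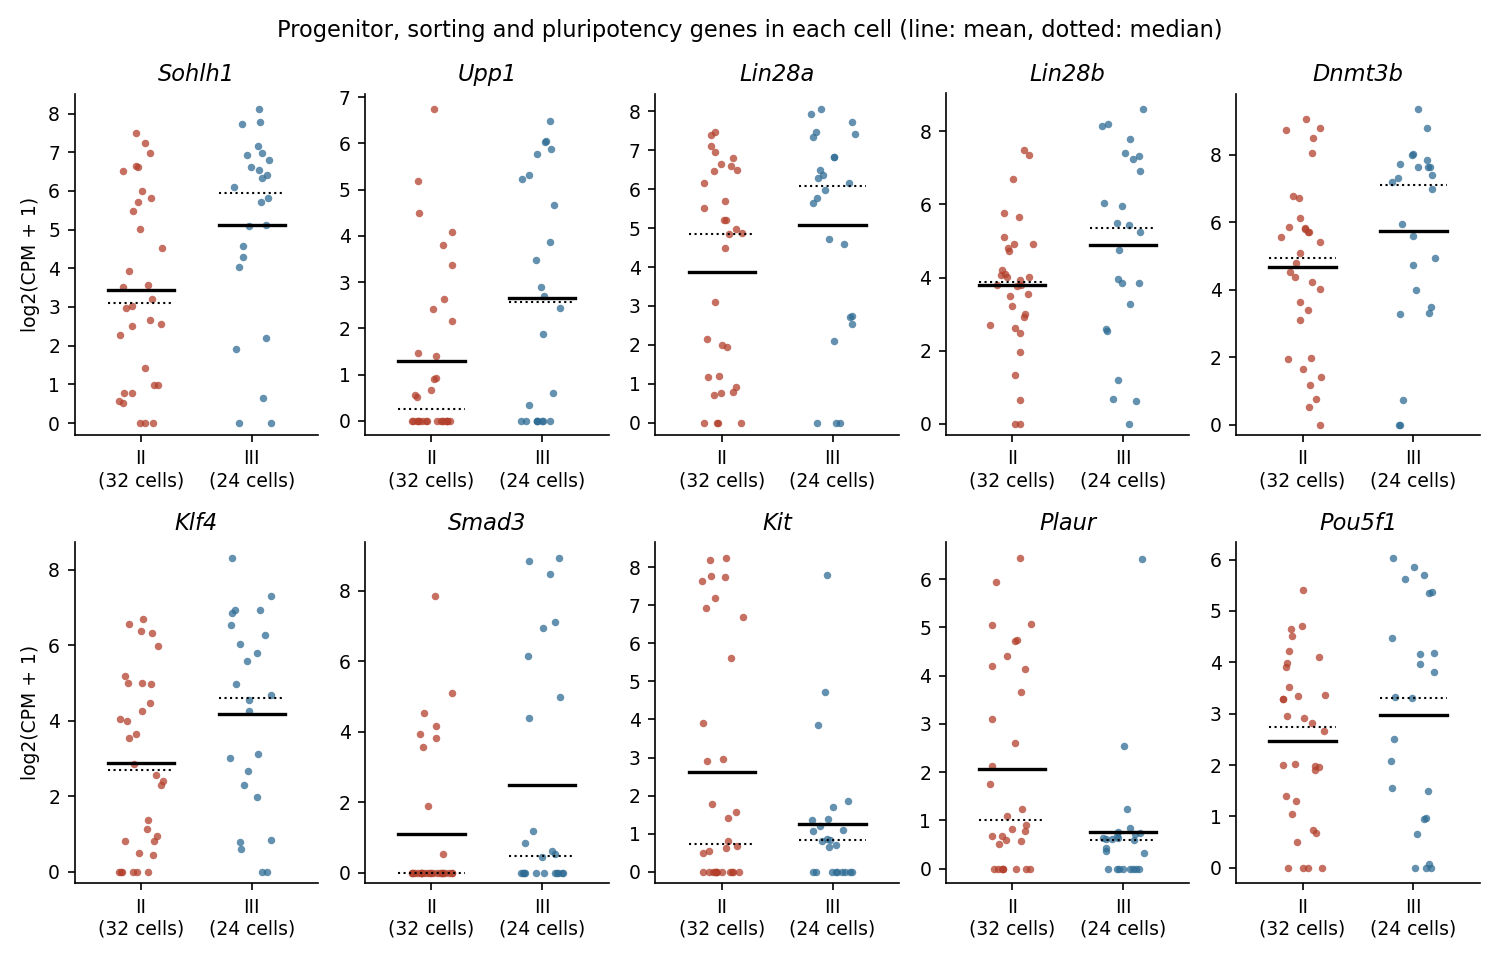
Each point is a cell, cluster II on the left and cluster III on the right of each panel, with log2(CPM + 1) on the vertical axis; the solid line is the mean and the dotted line the median. Sohlh1, Upp1 and the Lin28 genes sit lower in cluster II, and Kit shows equal shares of positive cells with a few higher cells in cluster II.

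Some genes of G2 and mitosis stood higher in cluster II. Of 35 G2 and M genes compared, 6 were past the fold on the higher side (5.31% of all genes) and 0 on the lower. A difference above 0 was seen in 29 of the 35, against 63.1% of all genes, and the median was 0.46. Plk1, the polo-like kinase gene of mitotic entry, ran from 0 to 346 CPM (median 36.9) in cluster II and from 0 to 453 CPM (median 4.01) in cluster III, a difference of 2.17. Mki67, the proliferation marker gene, was detected in every cell of both clusters and ran from 53.6 to 1211 CPM (median 447) in cluster II and from 1.41 to 1462 CPM (median 246) in cluster III, a difference of 1.21. The others past the fold were the spindle genes Nusap1 (1.48) and Kif23 (1.18), and the kinase genes Aurka (1.10) and Ttk (1.00). After thinning Kif23 stood at 0.99, under the fold, and with the median of all genes subtracted Aurka stood at 0.97 and Ttk at 0.88. The mitotic kinase gene Cdk1 (0.84) and the cyclin gene Ccnb1 (0.71) were under it, and Cdc25c, a phosphatase gene of mitotic entry, was lowest at -0.53.

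Of 32 S phase genes compared, 1 was past the fold on the higher side, the primase gene Prim1 (1.17), and 0 on the lower. The shares of all genes were 5.31% and 1.38%. The S phase genes had a median of 0.00, and 16 lay above 0 and 16 below, against 63.1% above 0 among all genes. The replication licensing gene Cdt1 (-0.87) and the loading factor gene Cdc6 (-0.47) lay below 0. Of 17 genes that control G1, Rbl1, a relative of the retinoblastoma gene, was the only member past the fold (1.23), and the list median was 0.10. No cell cycle phase was assigned to cells.

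Signalling and survival genes gave single members past the fold rather than whole lists. Of all genes, 5.31% were past it on the higher side and 1.38% on the lower. In the PI3K, AKT and FOXO list the catalytic subunit genes Pik3cb (1.37) and Pik3ca (1.17) were past the fold on the higher side and Tsc1 (-1.07), an inhibitor of mTOR complex 1, on the lower, of 19 compared (median 0.16). In the BMP, activin and TGF-beta list Fst, the activin-binding follistatin gene, stood higher (1.42) and Smad3, which carries activin and TGF-beta signals, lower (-1.37), of 20 compared (median 0.23). Fst ran from 0 to 144 CPM (median 24.3) in cluster II and from 0 to 112 CPM (median 3.66) in cluster III. Smad3 was detected in 8 of 32 cells of cluster II and 9 of 24 of cluster III, so its difference rested on a minority of high cells. Bcl2l1, the survival factor gene of the BCL2 family, had medians of 24.9 CPM in cluster II and 76.8 CPM in cluster III and a difference of -1.28, the only member past the fold of 16.

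In the pluripotency list, of 18 compared, the nuclear receptor gene Nr5a2 (1.65) was past the fold on the higher side. Klf4 (-1.30), a zinc finger factor gene, and Lin28a (-1.21) were past it on the lower. The shares of all genes, for this list and those below, were 5.31% higher and 1.38% lower. Nanog was detected in every cell of both clusters, with medians of 483 CPM in cluster II and 256 CPM in cluster III and a difference of 0.77. Processed copies of Nanog exist in the mouse genome, so its counts are uncertain. In the CD87 sorted libraries described further on, Nanog had 4.37 and 4.87 TPM in CD87 positive libraries, against 2.85 and 5.50 TPM in CD87 negative libraries, lower than Pou5f1 with 47.4 and 46.5 TPM in CD87 positive libraries and 18.3 and 59.04 TPM in CD87 negative libraries. Klf4 is also among the immediate early genes, where it was past the fold on the lower side and the phosphatase gene Dusp1 (1.10, and 0.90 after thinning) on the higher, of 12 compared. In the Polycomb list Phc2 (1.03, and 0.97 after thinning) stood higher and Cbx7 (-1.71) lower, of 24. Cbx7 reads a repressive histone mark and had medians of 1.23 CPM in cluster II and 7.89 CPM in cluster III.

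The remaining lists gave few genes or none past the fold. For all genes the shares were 5.31% on the higher side and 1.38% on the lower. The meiosis list had Mei1, a gene needed for meiotic breaks (1.82, of 22), and Sycp3, of the synaptonemal complex, lay at -0.47. The glycolysis list had the glucose transporter gene Slc2a3 (1.51) and the aldolase gene Aldoc (1.01, and 0.66 after thinning), of 20, and the adhesion list Cdh1 alone, of 25. DNA methylation genes had Dnmt3b alone, of 10, with Dnmt1, the maintenance enzyme gene, at 0.19. None was past the fold among 15 pan-germ cell genes, 13 retinoic acid genes, 19 piRNA genes, 17 WNT genes, 37 oxidative phosphorylation genes and 41 cytosolic ribosomal protein genes. Ribosomal protein genes differed little but mostly one way, with 34 of 41 below 0 and a median of -0.15. Among all genes 63.1% lay above 0. Many ribosomal protein genes have near-identical processed copies, so counts such as those of Rpl10a, detected in 3 of 32 and 4 of 24 cells, are uncertain.

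**Figure D4:**
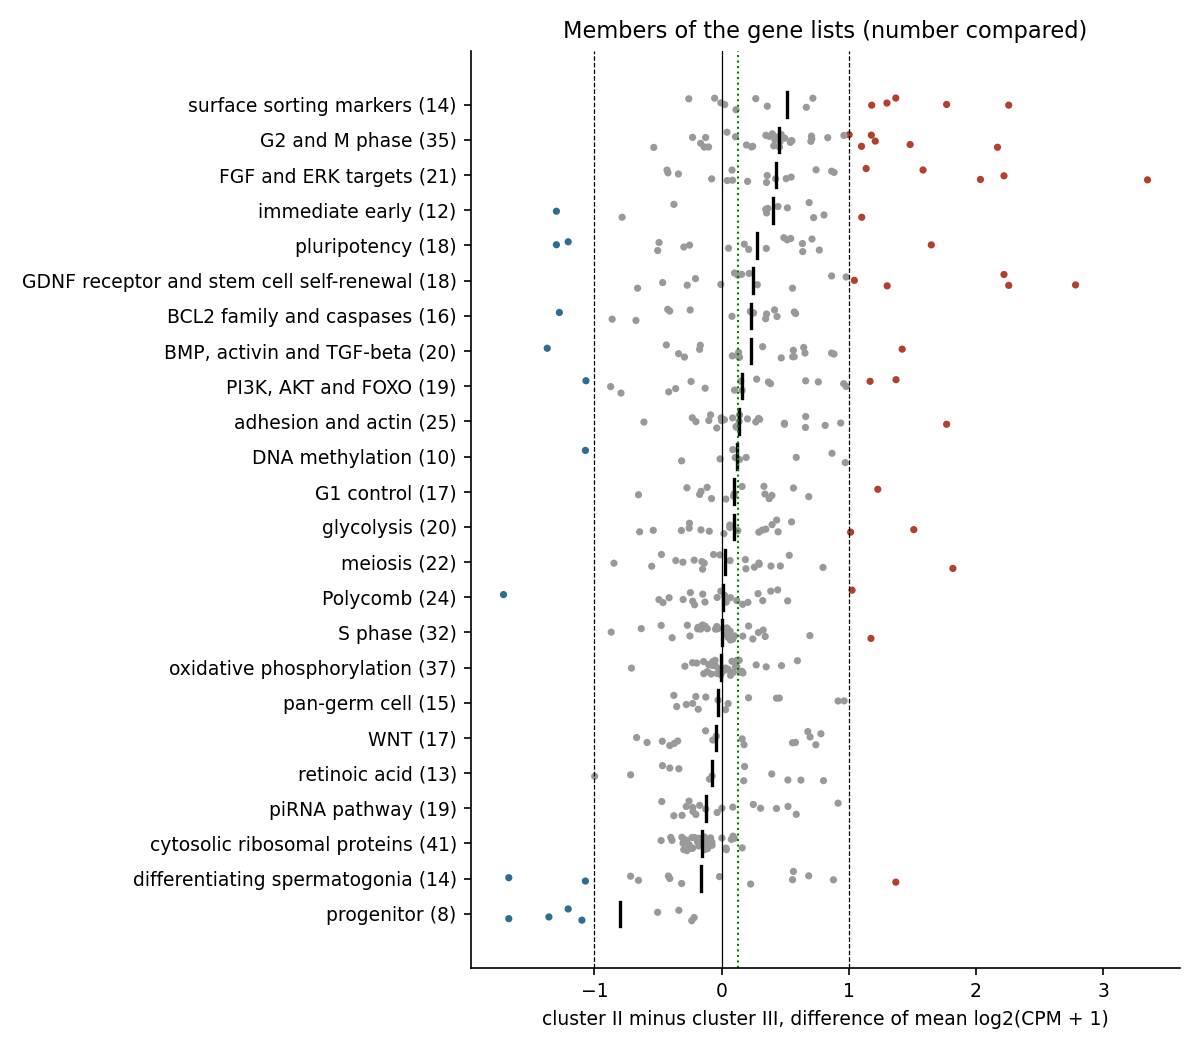
Each point is a gene of the named list, with the difference of mean log2(CPM + 1), cluster II minus cluster III, on the horizontal axis; the black tick is the list median, the green dotted line the median of all genes, and the dashed lines differences of 1 and -1. The progenitor list lies below 0 throughout, and the self-renewal, FGF and ERK, surface and G2 and M lists reach furthest to the right.

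Beyond the lists, the genes with the largest positive differences, among those detected in at least 50% of cluster II cells, were of mixed function. Map7d3, a microtubule-associated protein gene, ran from 0 to 357 CPM (median 63.8) in cluster II and from 0 to 70.0 CPM (median 4.94) in cluster III, a difference of 3.06. Dus3l, a tRNA dihydrouridine synthase gene, ran from 0 to 355 CPM (median 112) in cluster II and from 0 to 184 CPM (median 2.61) in cluster III, a difference of 2.98. Rela, the p65 subunit of NF-kappa-B, ran from 7.03 to 514 CPM (median 204) in cluster II and from 0 to 448 CPM (median 22.2) in cluster III, a difference of 2.93. It was detected in all 32 cells of cluster II and in 17 of 24 of cluster III, so cells without a count of it were found in cluster III alone. Nid1, the basement membrane protein nidogen, ran from 0 to 609 CPM (median 41.7) in cluster II and from 0 to 368 CPM (median 0.355) in cluster III, a difference of 2.85. The others were the exchange factor gene Arhgef11 (2.72), the palmitoyltransferase gene Zdhhc13 (2.31), Cdc23, of the anaphase-promoting complex (2.31), the folate enzyme gene Fpgs (2.30), the sphingosine kinase gene Sphk1 (2.27) and the F-box gene Fbxo28 (2.26). Each of these 10 genes overlapped between the clusters. A row that is a predicted locus or clone also ranked among the 15 largest and is left unnamed.

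The largest negative differences, among genes detected in at least 50% of cluster III cells, were smaller. Ctdspl, a small phosphatase gene, ran from 0 to 216 CPM (median 0.725) in cluster II and from 0 to 304 CPM (median 26.4) in cluster III, a difference of -2.24. Plcg2, a phospholipase C gene, ran from 0 to 315 CPM (median 7.93) in cluster II and from 0 to 820 CPM (median 91.5) in cluster III, a difference of -2.10. Mboat2, a phospholipid acyltransferase gene, ran from 0 to 241 CPM (median 3.56) in cluster II and from 0 to 200 CPM (median 79.6) in cluster III, a difference of -2.07. The ranges overlapped in each case. Next were Slc12a7, a potassium chloride cotransporter gene (-1.96), and Clcn2, a chloride channel gene (-1.94). Mrtfa, a coactivator of SRF (-1.94), Satb1, a chromatin organiser (-1.89), Atg7, of autophagy (-1.81), Asb9 (-1.75), the extracellular protein gene Reln (-1.74), the actin bundler Fscn1 (-1.72) and the ubiquitin ligase receptor gene Dcaf11 (-1.70) completed the set with Cbx7. A further 2 rows that are predicted loci or clones are left unnamed.

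Clusters I and IV give the levels a wider frame, though each holds few cells. The median of Etv5 was 203 CPM in cluster I and 0 CPM in cluster IV, that of Gfra1 137 and 0 CPM, and that of Ccnd2 1478 and 79.3 CPM. For Sohlh1 the medians were 0.439 CPM in cluster I and 35.2 CPM in cluster IV, so cluster II lay between cluster I and cluster III for Sohlh1. For Etv5 and Spry4 (25.7 CPM in cluster I and 0 CPM in cluster IV) cluster II had the highest median of the 4 clusters, and for Ret (457 CPM in cluster I and 158 CPM in cluster IV), Gfra1 and Ccnd2 cluster I had the highest.

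The CD87 sorted libraries did not enter the clusters and were used to look at the same genes in other samples. Their values are TPM, which is scaled for gene length and keeps no sequencing depth. Of 12715 genes tested with limma, 3 were higher in CD87 positive cells at an adjusted p under 0.05 (0.0236%; Apoe, Lyz2 and Tmsb4x) and 0 lower (0%), of which Apoe differed by 0.17 between the clusters and the others were under the minimum number of cells there. At an unadjusted p under 0.05, limma gave 428 higher and 201 lower. Both CD87 positive libraries lay above both CD87 negative libraries for 20.4% of all genes tested and below them for 14.5%. Lyz2 is in the macrophage marker list, and all 5 members tested lay higher in both CD87 positive libraries. The summed macrophage markers were 129 and 104 TPM in CD87 positive libraries, against 3.09 and 1.40 TPM in CD87 negative libraries, and the summed Sertoli markers 76.1 and 12.5 TPM in CD87 positive libraries, against 79.4 and 151 TPM in CD87 negative libraries. The part of either in the values below was not tested. In such libraries fewer cells of a type and less RNA per cell cannot be told apart. CD87 positive library 2 listed the fewest genes, 12063, against 15147 to 16267 in the other three.

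No gene past the fold between the clusters passed the CD87 test, so what follows is a description. Spry4 had 7.02 and 15.9 TPM in CD87 positive libraries, against 0.40 and 2.06 TPM in CD87 negative libraries (log2(TPM + 1) difference 2.49, limma adjusted p = 0.824). Dusp6 had 26.3 and 36.7 TPM in CD87 positive libraries, against 5.30 and 8.52 TPM in CD87 negative libraries (2.05, limma adjusted p = 0.483). Etv5 had 47.3 and 43.1 TPM in CD87 positive libraries, against 13.3 and 14.9 TPM in CD87 negative libraries (1.61, limma adjusted p = 0.483). The CD87 positive libraries were higher in both replicates for these 3 genes and also for Etv4 (1.23) and Spred1 (1.24). The 5 ERK genes past the fold in cluster II were thus all higher in both CD87 positive libraries, without passing the test. That order of the libraries was seen for 20.4% of all genes tested.

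Among members of all lists that were past the fold on the higher side, both CD87 positive libraries lay above both CD87 negative ones for 17 of 29 tested and below them for 1. Over all genes tested the shares were 20.4% above and 14.5% below. The 17 include Plaur, which encodes the protein the cells were sorted by, so its order is no separate result. Plaur also passed the TPM filter through the CD87 positive libraries alone. Lhx1 had 18.2 and 9.59 TPM in CD87 positive libraries, against 2.47 and 1.17 TPM in CD87 negative libraries (2.38, limma adjusted p = 0.717), and Ret, Tspan8, Cdh1 and Fst (1.32, 1.27, 2.18 and 1.75) also had both CD87 positive libraries above both CD87 negative ones. Adgra3 overlapped, with 9.40 and 11.6 TPM in CD87 positive libraries, against 10.9 and 7.95 TPM in CD87 negative libraries (0.15), and Pax7 was under the minimum level. Gfra1, alike between the clusters, had 53.1 and 52.9 TPM in CD87 positive libraries, against 21.3 and 20.8 TPM in CD87 negative libraries (1.29, limma adjusted p = 0.597). Kit went the other way from the clusters' means, with 37.7 and 22.5 TPM in CD87 positive libraries, against 75.5 and 53.1 TPM in CD87 negative libraries (-1.09, limma adjusted p = 0.863). Plaur, the sorted marker, had 3.53 and 8.92 TPM in CD87 positive libraries, against 0.46 and 0.97 TPM in CD87 negative libraries (1.98, limma adjusted p = 0.863).

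Genes lower in cluster II were mixed in the sorted libraries, and of 10 list members tested 1 lay higher and 3 lower in both CD87 positive libraries. Over all genes tested these shares were 20.4% and 14.5%. Upp1 had 2.16 and 0 TPM in CD87 positive libraries, against 5.63 and 8.02 TPM in CD87 negative libraries (-2.12, limma adjusted p = 0.863). Sohlh1 (-0.35) and Dnmt3b (-0.77) also had both CD87 positive libraries below both CD87 negative ones, Lin28a overlapped (0.08) and Lin28b lay higher (0.33). Several of the largest cluster differences overlapped there: Rela had 21.9 and 6.22 TPM in CD87 positive libraries, against 20.5 and 15.7 TPM in CD87 negative libraries, and the same held for Dus3l, Fpgs, Cdc23 and Plk1 (-0.36, -0.18, -0.81 and -0.24). Ctdspl overlapped (0.06), and Plcg2 (0.96) lay higher in both CD87 positive libraries.

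Over the genes that passed the TPM filter, the median CD87 difference was 0.35 for the 30 genes at least 2 higher in cluster II, 0.08 for 784 of the 848 genes past the fold on the higher side, -0.03 for 216 of the 220 on the lower side, and 0.03 for 11849 genes compared in both tables. Both CD87 positive libraries lay above both CD87 negative ones for 46.7%, 25.6% and 20.4% of those 3 sets and for 20.8% of the 11849. The share was thus furthest from that of all genes for the 30 largest differences, which is no test. The filter needs 1 TPM in 2 libraries, so a low gene could enter through either group alone.

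**Figure D5:**
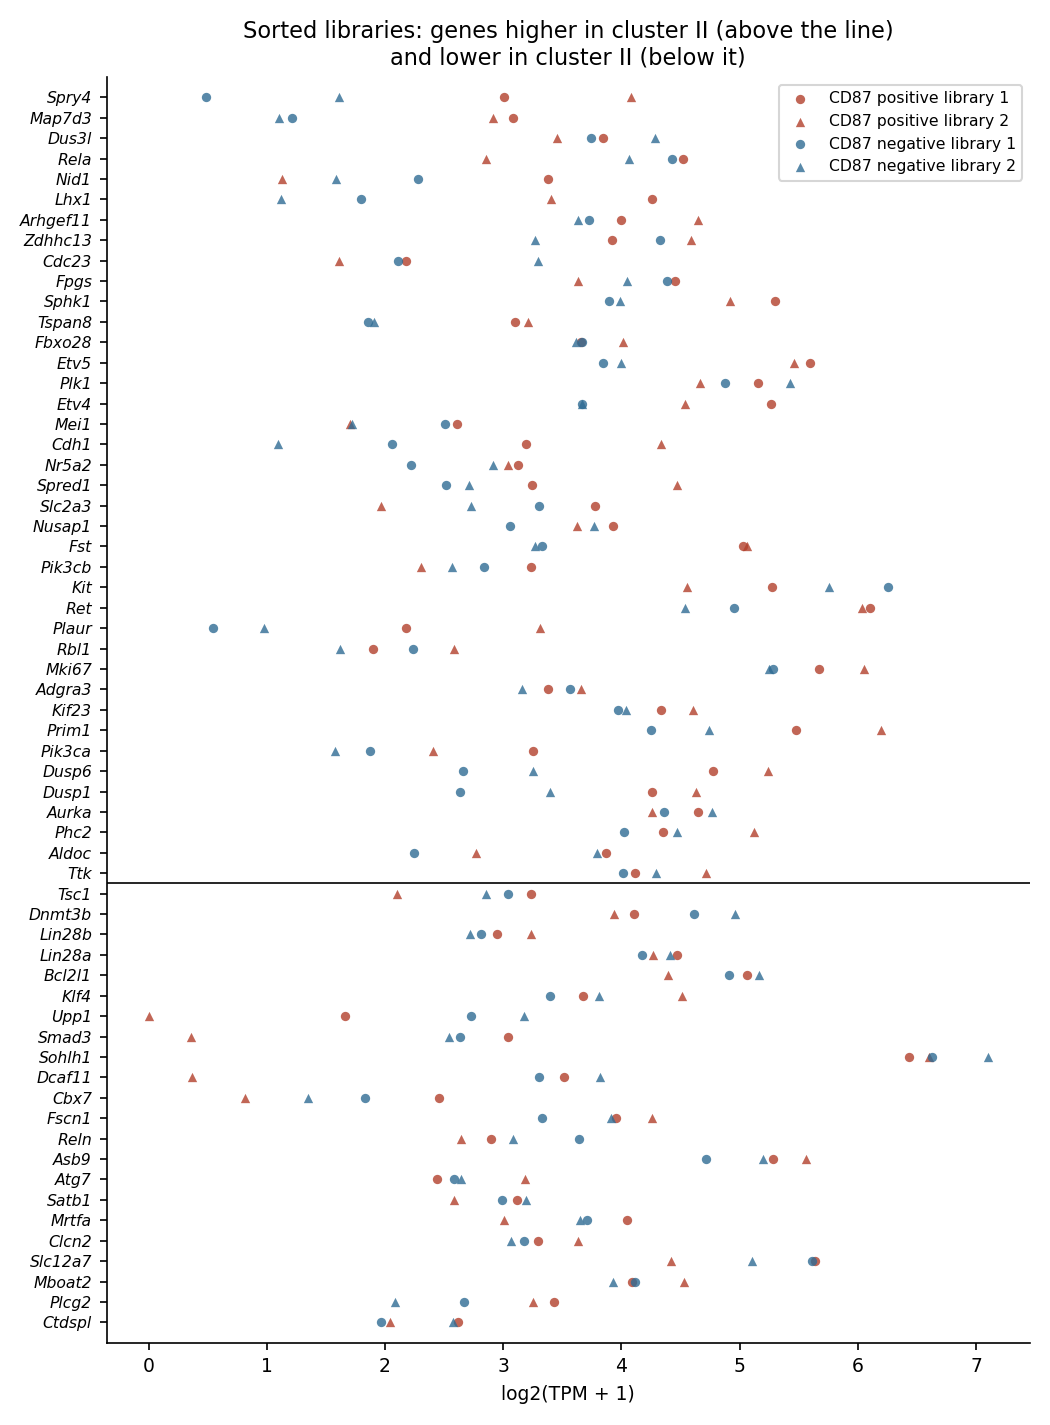
Rows are list members and leading genes past the fold between the clusters, those higher in cluster II above the line and those lower below it; the horizontal axis is log2(TPM + 1), red marks the CD87 positive and blue the CD87 negative libraries, circles library 1 and triangles library 2. Spry4, Lhx1, Etv5, Etv4, Dusp6 and Cdh1 have both red points to the right of both blue ones, while Rela and Dus3l overlap and the genes below the line are mixed.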

How the data were processed

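RNA of 71 single cells and of 4 CD87 sorted libraries was used. Single cells have expected counts, deposited by the authors, from Salmon after Trim Galore, with build mm9 named in the submitters' processing notes. The same table gives each cell's cluster. Its column names give day 6 where the labels give day 5.5, and cells were matched by their number. For the sorted cells, amplified by Smart-seq2 per the labels' protocols, the authors deposited TPM values, made with Trim Galore and RSEM per those notes. Versions and the gene annotation: not given in the sources used here.

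The 22 gene rows whose names had become dates (at most 0.609% of a cell) were left out. Counts were scaled to CPM by each cell's total, and the difference of mean log2(CPM + 1), cluster II minus cluster III, was taken without rounding and without a test. Salmon leaves tiny fractions of a count, which the text gives as 0. Intervals on shares of cells cover only the counting of cells within 1 sample and do not compare the clusters. Reads carry no molecular identifiers, so counts are not molecules. No length adjustment enters CPM, so levels were set side by side within a gene. No doublet caller was run on these cells, and neither removal of doublets by the authors nor strand use in counting is stated in the labels. CD87 libraries were compared with limma 3.58.1 (R 4.3.3) with a trend on log2(TPM + 1), two-sided, Benjamini-Hochberg at 0.05, for genes at 1 TPM or more in at least 2 libraries. Nothing says that the libraries came from separate animals, so the p-values rest on library spread alone, which may be technical. For low genes, folds on the log2(TPM + 1) scale come out too small. Sequencing depth of the CD87 libraries is unknown, since TPM does not keep it. The code was tested on simulated data.

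Named genes were the 5 given markers, the 15 largest differences in each direction where 50% or more cells of the higher cluster had the gene, up to 6 members of each list, and Pou5f1, Kit, Plaur and Ddx4. Other list members are named with their values as further examples, chosen after these were seen. Of 526 entries in 24 lists, 486 matched a gene row directly, 37 by an older symbol in a RefSeq table of GRCm38.p6 and 3 none. That build differs from mm9, so its coordinates stand with its own sequences only. The members and lists were chosen with earlier results of these data known.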

Additional observations from a re-analysis of the deposited data

How the results depend on the processing

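The cluster counts depended on the pseudocount. With 0.1 in place of 1 there were 2391 higher and 610 lower genes past the fold, with 10 there were 87 and 20, with the median over cells 1541 and 555, and with cells thinned to 1 depth 1027 and 333. With the median of all genes subtracted, chosen after seeing the data, 341 were lower. TMM factors, leaving out the deepest and shallowest cell of each cluster, and other minimum numbers of cells kept both counts within 1.5 times. Of 40 named genes past the fold on the higher side, 31 or more stayed past it under every setting except a pseudocount of 10, where 15 did, and all stayed above 0 except under the median over cells, where 38 did. Of 22 on the lower side, 21 or more stayed past it, except 9 with a pseudocount of 10. Kit had a difference of -0.0813 with the median over cells, and the cause was not tested.

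In the CD87 libraries the 3 higher and 0 lower calls became 1 and 0 with a pseudocount of 0.1 and with no filter on low TPM, and 0 and 0 with no trend. With 1 library left out they ranged from 8 to 1169 higher and from 1 to 1819 lower. The highest counts came without CD87 positive library 1, and without CD87 positive library 2 they were 65 and 36. The lone library of a group is there assumed to vary like the other group. With the replicate number as a block, 84 were higher and 46 lower. Deviations of same-numbered libraries correlated at 0.0675. With 2 libraries per group this cannot show whether they were paired, and nothing in the labels beyond the number says so. The median CD87 difference of genes past the fold on the lower side, -0.03, lay between -0.15 and 0.08 with 1 library left out. Depth limits single-cell detection: many shares rest on 1 or a few counts.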
